A study of Homo sapiens with 40 samples.

Results

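The long non-coding snoRNA host transcripts are RNAs that encode no known protein and carry small nucleolar RNAs (snoRNAs) inside their introns. They were taken by name: every symbol of the form SNHG followed by a number, plus GAS5, ZFAS1, DANCR and EPB41L4A-AS1. MEG3 and TUG1, long non-coding RNAs outside the SNHG naming series, were followed as references. Of the 30 symbols, 29 had values in at least 1 cell line, out of 19280 genes with values. These were 27 hosts and 2 references, and SNHG28 had no value in any line. The family was chosen by the fold changes between compound and vehicle in these same lines. Its direction and its counts of calls are therefore given as a description and support nothing.

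RNA was sequenced from 10 cell lines of human non-small cell lung cancer. Each line received GSK3368712, an inhibitor of the type I protein arginine methyltransferases, or its vehicle dimethyl sulfoxide (DMSO). Each arm of a line had 2 libraries, 40 in all. The sample titles end in D5, and the row labels also hold a number without a unit. Neither the dose nor the exposure time is spelled out. The row labels place EBC1, LK2, NCIH226, NCIH520, SKMES1 and SW900 in lung squamous cell carcinoma (LUSC) and NCIH1563, NCIH1975, NCIH522 and PC9 in lung adenocarcinoma (LUAD). All values are those of the authors' deposited table, which gives 1 comparison per line. A positive log2 fold change is taken to mean more RNA with GSK3368712, because the row labels name the compound before DMSO; the values offer no check of this direction.

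Splicing frees the introns of a host, and the snoRNAs are trimmed out of them. Box C/D snoRNAs guide ribose methylation and box H/ACA snoRNAs guide pseudouridylation of ribosomal RNA, while the related scaRNAs act on spliceosomal RNAs in Cajal bodies. The spliced remainder of several hosts, GAS5 being the best known, is bound by ribosomes, has only short reading frames and is degraded by nonsense-mediated decay, so its steady level depends on translation as well as on transcription. Many hosts, like ribosomal protein genes, start with a run of pyrimidines (a 5′ terminal oligopyrimidine tract), which links their translation to growth signalling. Type I arginine methyltransferases modify many RNA-binding proteins, among them fibrillarin, the methyltransferase of box C/D particles.

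RefSeq placed at least 1 named snoRNA or scaRNA inside each of the 21 hosts with values in all 10 lines. In 7 of them these were box C/D snoRNAs, in 9 box H/ACA snoRNAs, in 2 both kinds (GAS5 and SNHG12), and in 3 scaRNAs (SNHG10, SNHG20 and SNHG21). GAS5 holds 11 and SNHG1 holds 8, whereas SNHG19 (SNORD60) and SNHG8 (SNORA24) hold 1 each. RefSeq lists none inside SNHG27, TUG1 or MEG3, so the label of host rests on the name alone for SNHG27.

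The start regions of 9 hosts are shown to compare hosts with and without a pyrimidine run at the annotated start, the feature typical of ribosomal protein genes. Runs are more common among these 9 than among all hosts, whose shares are given below. Each run spans 80 bases of RefSeq's GRCh38.p14 promoter entries, from 30 bases before the annotated start, written 5′ to 3′ along the transcript. Capitals mark the longest run of a C followed by at least 4 further C or T that begins within 10 bases of that start, searched on the transcript strand. The search cuts a longer run at this limit, as in SNHG7, where pyrimidines of the same run continue before the capitals. Here SNHG19, SNHG5, ZFAS1 and SNHG4 have the run at the start itself, SNHG12 has it 1 base earlier, and GAS5 has none that begins within 10 bases of the start.
SNHG19 (chr16:2155309-2155388, minus strand): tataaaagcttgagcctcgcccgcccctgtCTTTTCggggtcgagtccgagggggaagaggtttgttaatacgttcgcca
SNHG8 (chr4:118278732-118278811, plus strand): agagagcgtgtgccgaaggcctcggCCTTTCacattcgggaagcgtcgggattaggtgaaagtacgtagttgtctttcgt
SNHG7 (chr9:136728135-136728214, minus strand): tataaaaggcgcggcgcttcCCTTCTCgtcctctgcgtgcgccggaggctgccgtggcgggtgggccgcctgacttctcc
SNHG5 (chr6:85678684-85678763, minus strand): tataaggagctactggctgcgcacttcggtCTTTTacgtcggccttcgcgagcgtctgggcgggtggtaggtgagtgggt
ZFAS1 (chr20:49278612-49278691, plus strand): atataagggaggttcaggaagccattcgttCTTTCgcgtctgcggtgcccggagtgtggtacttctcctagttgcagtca
SNHG4 (chr5:139274071-139274150, plus strand): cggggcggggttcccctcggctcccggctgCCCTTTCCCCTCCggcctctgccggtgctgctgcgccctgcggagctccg
SNHG12 (chr1:28581824-28581903, minus strand): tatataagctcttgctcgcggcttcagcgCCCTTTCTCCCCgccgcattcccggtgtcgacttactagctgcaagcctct
GAS5 (chr1:173868996-173869075, minus strand): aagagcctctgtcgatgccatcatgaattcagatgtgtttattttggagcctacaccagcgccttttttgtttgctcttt
SNHG17 (chr20:38435279-38435358, minus strand): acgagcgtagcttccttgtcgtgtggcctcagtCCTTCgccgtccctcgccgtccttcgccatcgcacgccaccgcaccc

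A C followed by at least 4 pyrimidines stood exactly at the annotated start in 6 of the 23 hosts with values and a promoter entry (26.1%), against 4.04% of 27305 promoters and 66.7% of 66 cytosolic ribosomal protein genes. Allowing 10 bases either way gave 60.9% of the hosts, 33.3% of all promoters and 86.4% of the ribosomal protein genes. The annotated start is not a measured one: RefSeq and GENCODE 29 place the start of GAS5 163 bases apart and that of SNHG1 29 bases apart. The gap was 464 bases for ZFAS1, 1259 for SNHG12, 1927 for SNHG20, 8464 for SNHG27 and 154975 for SNHG14. It was 53 for SNHG8, 25 for SNHG17 and 15 for SNHG5, but 0 for SNHG19 and SNHG7 and 1 for SNHG4. The runs and shares given here hold for RefSeq's starts only. Among hosts with values in all lines and a promoter entry, 11 had a run within 10 bases and 7 had none. SNHG6, SNHG9 and SNHG15 had values in all lines but no promoter entry and are left out. The median of the mean log2 fold changes was 0.63 (range −0.17 to 1.23) for the 11 and 0.43 (range 0.07 to 0.72) for the 7. These ranges overlap. SNHG17, whose mean was negative, has a run of 5 beginning 3 bases after its start. The same fold changes chose the family and the starts are annotated ones, so this split is a description only. Any part of the run in the fold changes was not tested.

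Across the lines, most hosts were higher with GSK3368712. The across-line call is a limma test of the 10 fold changes of a gene against 0, with p adjusted by Benjamini-Hochberg over the 9339 genes with values in all lines and a threshold of 0.05. By that rule 17 of 21 hosts were called higher and 0 lower, beside 9.50% of all genes called higher and 12.1% called lower. In bulk RNA, more RNA per cell and more cells that carry it cannot be told apart. Restricting the fit to the upper 75% of genes by expression left 12 hosts, of which 9 were called higher; SNHG1 was tested there and lost its call. At an unadjusted p under 0.05, 1 host had a negative mean (SNHG17). Of the 21 hosts, 20 had a positive mean and 9 were positive in every line. The median of the hosts' mean log2 fold changes was 0.52, against 0.00 over all genes tested. Because the same fold changes chose the family, nothing is read from the excess over the background.

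**Figure D1:**
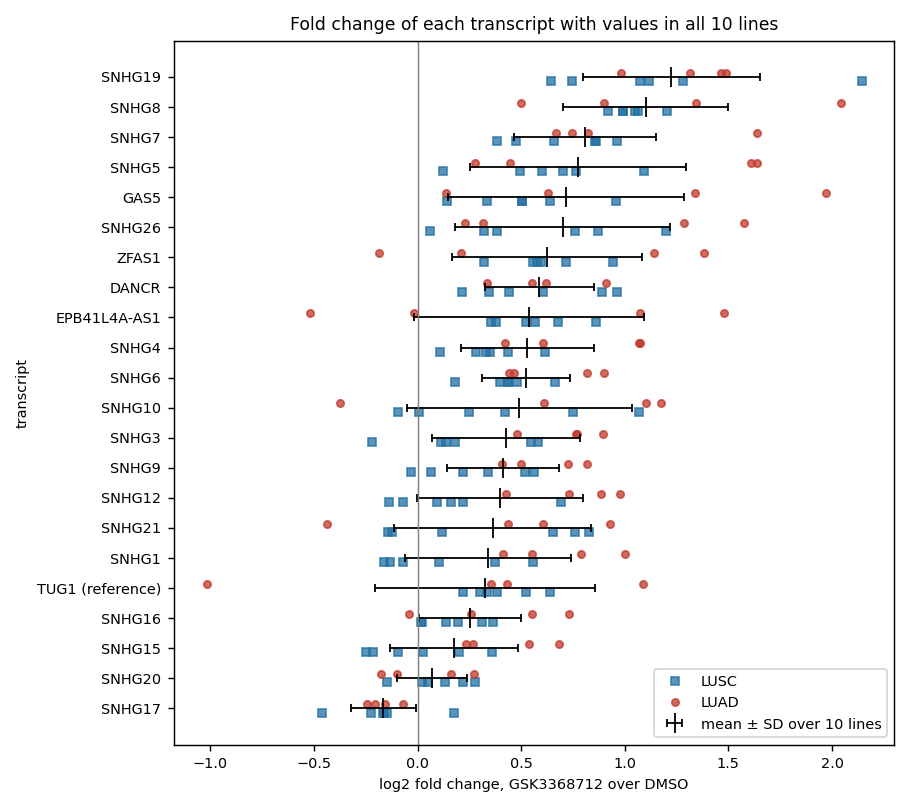
Log2 fold change (horizontal axis, GSK3368712 over DMSO) of the 21 hosts and of TUG1, with 1 square for each LUSC line and 1 circle for each LUAD line; black marks are the mean ± SD over 10 lines. SNHG19 and SNHG8 lie to the right of 0 in all 10 lines, whereas SNHG17 lies to the left in 9.

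Among hosts of box C/D snoRNAs, all 7 measured in every line were called higher (all genes: 9.50% higher and 12.1% lower). Their means ran from 0.25 to 1.23. Those of the box H/ACA hosts ran from −0.17 to 1.10 and those of the scaRNA hosts from 0.07 to 0.49. These ranges overlap, and no difference between the classes was tested. SNHG19 (ENSG00000260260, chr16:2154797-2155358, minus strand), a short 2-exon RNA around SNORD60, had the highest mean of the 21 hosts with values in all lines, at 1.22 ± 0.43 (SD, n = 10). In the authors' deposited table its log2 fold changes ran from 0.65 in LK2 through a median of 1.20 to 2.14 in EBC1, with standard errors between 0.10 and 0.34. All 10 lines were above 0, and EBC1 stood well above the others. By its mean SNHG19 ranked 11th from the top of the 9339 genes.

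SNHG5 (chr6:85660950-85678748, minus strand), the host of SNORD50A and SNORD50B, averaged 0.77 ± 0.52 (SD, n = 10). The authors' deposited table gives it 1.64 in NCIH1563 and 1.61 in NCIH1975, but 0.12 in SW900, with a median of 0.65. Those 2 LUAD lines lie apart from the other 8, of which the highest is LK2 at 1.09. ZFAS1 (chr20:49278178-49295738, plus strand), the host of SNORD12, SNORD12B and SNORD12C, averaged 0.63 ± 0.46 (SD, n = 10). Its values in the authors' deposited table ran from −0.18 in NCIH522 through a median of 0.59 to 1.38 in NCIH1975, and 8 lines were called higher by the authors' adjusted p. Only NCIH522 fell below 0.

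SNHG26, which holds SNORD93, averaged 0.70 ± 0.52 (SD, n = 10), with PC9 at 1.58 and SKMES1 at 0.06 in the authors' deposited table. SNHG6, the host of SNORD87, had a lower but tighter mean of 0.52 ± 0.21 (SD, n = 10) and was positive in all 10 lines. SNHG16, the host of SNORD1A, SNORD1B and SNORD1C, averaged 0.25 ± 0.25 (SD, n = 10). SNHG1 averaged 0.34 ± 0.40 (SD, n = 10), and its values in the authors' deposited table ran from −0.16 in SKMES1 to 1.00 in NCIH1975. EBC1, SKMES1 and SW900 were below 0 for SNHG1, and the call for it was lost in 7 of the 10 fits that left out a line. SNHG16 was lost in 6 of them.

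Of the 2 hosts that hold both kinds of snoRNA, GAS5 (ENSG00000234741, chr1:173863900-173868882, minus strand), a transcript that accumulates in growth-arrested cells, averaged 0.72 ± 0.57 (SD, n = 10). In the authors' deposited table it ran from 0.14 in NCIH522 through a median of 0.57 to 1.97 in NCIH1975 (standard error 0.37), with NCIH1563 at 1.34 and LK2 at 0.96 coming next. It was above 0 in all 10 lines and called higher by the authors' adjusted p in 7. SNHG12, which holds SNORD99 and 3 box H/ACA snoRNAs, averaged 0.40 ± 0.40 (SD, n = 10) and was called higher by the authors in 3 lines.

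Of the 9 hosts of box H/ACA snoRNAs, 7 were called higher across lines (all genes: 9.50% higher and 12.1% lower). SNHG8 (ENSG00000269893, chr4:118278709-118279823, plus strand), the host of SNORA24, averaged 1.10 ± 0.40 (SD, n = 10) and ranked 16th of 9339 genes. The authors' deposited table gives it 0.50 in NCIH522, a median of 1.02 and 2.04 in NCIH1563. The 6 LUSC lines were close together, between 0.92 and 1.20. SNHG7 (chr9:136721366-136728184, minus strand), the host of SNORA17A and SNORA17B, averaged 0.81 ± 0.34 (SD, n = 10), with a low of 0.38 in SKMES1, a median of 0.78 and a high of 1.64 in NCIH1563 in the authors' deposited table. Both were above 0 in every line.

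DANCR (chr4:52712404-52720351, plus strand), the host of SNORA26 and named for its part in keeping progenitors undifferentiated, averaged 0.59 ± 0.26 (SD, n = 10). Its lowest value in the authors' deposited table was 0.22 in NCIH520, its median 0.58 and its highest 0.96 in LK2. EPB41L4A-AS1, the host of SNORA13, averaged 0.54 ± 0.56 (SD, n = 10), from −0.52 in NCIH522 to 1.48 in NCIH1975 in the authors' deposited table. SNHG4, the host of SNORA74A and SNORA74D, averaged 0.53 ± 0.32 and was positive in all 10 lines. SNHG3, with SNORA73A and SNORA73B, averaged 0.43 ± 0.36, and SNHG9, with SNORA78, averaged 0.41 ± 0.27 (SD, n = 10 for each). SKMES1 was the only line below 0 for SNHG3, and SW900 was the only one for SNHG9.

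SNHG15, the host of SNORA9, and SNHG17, the host of SNORA71A to SNORA71D, were not called. SNHG15 averaged 0.17 ± 0.31 (SD, n = 10). SNHG17 (chr20:38420588-38435353, minus strand) was the single one of the 21 hosts with values in all lines that had a negative mean, −0.17 ± 0.16 (SD, n = 10). The authors' deposited table gives it −0.46 in SKMES1 and −0.22 in SW900, both called lower, and a positive value of 0.18 in NCIH520. Its neighbour SNHG11, which lies beside SNHG17 on the other strand of chromosome 20 and also holds a member of the SNORA71 group, had values in 9 lines between −0.44 and 0.33 in the authors' deposited table, with no call in either direction.

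Of the 3 scaRNA hosts, 1 was called higher (all genes: 9.50% higher and 12.1% lower). SNHG10, the host of SCARNA13, averaged 0.49 ± 0.54 (SD, n = 10), with 1.18 in PC9 and −0.38 in NCIH1975 in the authors' deposited table. Its call was lost in 5 of the 10 fits that left out a line. SNHG21 averaged 0.36 ± 0.48 and SNHG20 averaged 0.07 ± 0.17 (SD, n = 10 for each). SNHG20 was called in no line by the authors' adjusted p, and all its values lay between −0.18 and 0.28.

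Another 6 hosts had values in some lines only. SNHG25 is a short RNA around SNORD104 and SNORA50C. Its 9 values in the authors' deposited table ran from −0.15 in LK2 through a median of 0.96 to 5.40 in NCIH1563, the last with a standard error of 2.07 on a mean normalized count of 9.63. In a fit of the 12111 genes with values in at least 7 lines, where 9.36% were called higher and 10.8% lower, SNHG25 was called higher with a mean of 1.45 ± 1.57 (SD, n = 9). That call was lost in 7 of the fits that left out a line. Without NCIH1563 the mean of SNHG25 was 0.95 and the call stood (limma adjusted p = 0.00273). SNHG18, the host of SNORD123, was positive in all 6 lines with values, from 0.11 in NCIH226 to 1.38 in EBC1 in the authors' deposited table, and was called higher in EBC1, SKMES1 and NCIH1563. SNHG22, the host of SCARNA17, had 2.03 in LK2 and 0.47 in NCIH520, and SNHG27 had 2.04 in SW900 with a standard error of 0.90, all in the authors' deposited table and all on mean normalized counts of at most 69.9.

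SNHG14 (chr15:24978583-25419462, plus strand) is the long imprinted RNA of the Prader-Willi region, in which RefSeq lists 83 box C/D snoRNAs. It had values in 7 lines, and its mean was −0.11 ± 0.62 (SD, n = 7), not called in the fit of genes with at least 7 lines. The authors' deposited table gives −1.27 in NCIH1563 and −0.18 in SW900, both called lower, and 0.85 in NCIH1975, not called. SNRPN, which lies on the same strand and overlaps it, was called higher in 5 of its 8 lines, including 0.45 in NCIH1563 in the authors' deposited table. PWAR6, a non-coding RNA within the same span, was called higher in all 4 of its lines, from 0.47 to 1.42 in the authors' deposited table. PWAR5, in the same span, was measured in 5 lines. The authors' deposited table calls it lower in SW900 (−0.69), as SNHG14 was, and higher in LK2 (0.65). Reads of overlapping transcripts on 1 strand may be assigned to either, so the values of these genes are uncertain.

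Of the references, TUG1 was not called across lines, with a mean of 0.32 ± 0.53 (SD, n = 10). Its values in the authors' deposited table were between 0.22 and 1.09 in 9 lines and −1.02 in NCIH1563, where it was called lower. It was called higher in 7 lines. MEG3 had values in NCIH520 (0.57) and SKMES1 (−0.02) in the authors' deposited table and was called in neither.

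**Figure D2:**
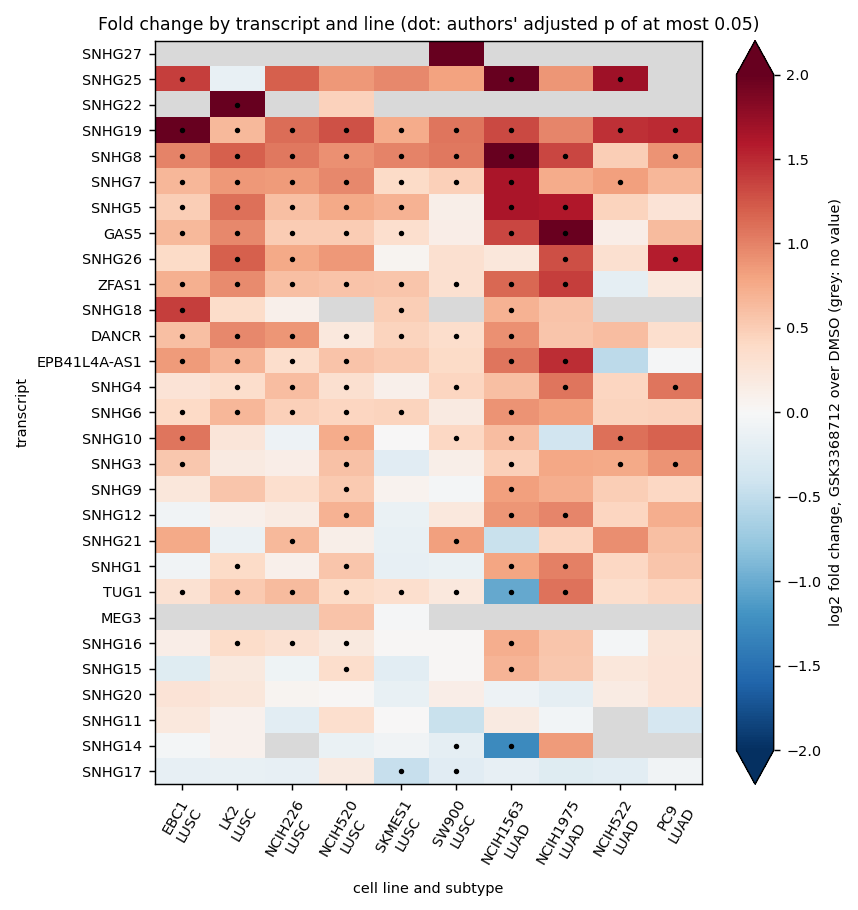
Log2 fold change of each of the 29 transcripts (rows, ordered by mean) in each of 10 lines (columns, LUSC then LUAD), with colour limits at −2 and 2, grey for no value and a dot where the authors' adjusted p was at most 0.05. Most cells are red, and the blue cells with dots are SNHG14 in SW900 and NCIH1563, SNHG17 in SKMES1 and SW900, and TUG1 in NCIH1563.

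Line by line, the hosts had 244 entries with values, of which 111 were called higher and 4 lower by the authors' adjusted p of at most 0.05. The 4 lower calls were SNHG14 and SNHG17 in 2 lines each. When a log2 fold change past 1 or −1 was required as well, 35 were higher and 1 was lower. The share of all genes at that setting is not given, so nothing is read from these counts. In NCIH1563, 18 of 25 hosts were called higher, where 23.3% of all genes were higher and 24.8% lower. In NCIH520, 17 of 25 were higher, beside 11.4% of all genes higher and 12.3% lower. LK2 had 14 of 26 hosts higher (19.9% of all genes higher, 19.5% lower), EBC1 had 13 of 25 (23.0% higher, 23.4% lower) and NCIH226 had 13 of 24 (15.5% higher, 15.8% lower).

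The other lines had fewer calls. SKMES1 had 9 of 25 hosts higher, with 15.8% of all genes higher and 15.6% lower, and SW900 had 8 of 25, with 18.0% higher and 17.7% lower. NCIH1975 had 9 of 25 hosts higher, beside 4.33% of all genes higher and 3.58% lower. NCIH522 had 5 of 22 hosts higher (0.912% of all genes higher, 0.750% lower), and PC9 also had 5 of 22 (2.56% higher, 1.92% lower). The lines also differed in error: the median standard error of the 21 hosts was 0.33 in NCIH1975, 0.29 in PC9 and 0.24 in NCIH522, against 0.09 to 0.13 in the LUSC lines. By size alone, the median log2 fold change of the 21 hosts was 0.82 in both NCIH1563 and NCIH1975 and 0.06 in SKMES1. SKMES1 had the lowest median of the 10 lines, and its highest host was SNHG8 at 0.99 in the authors' deposited table.

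**Figure D3:**
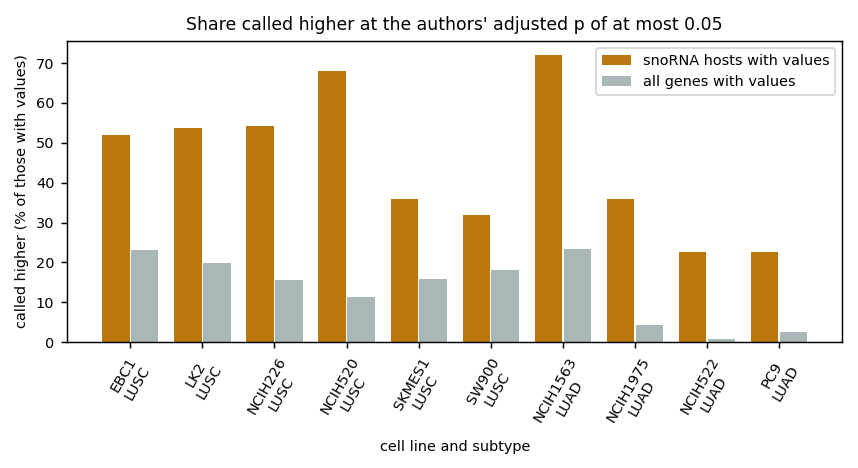
Share of the snoRNA hosts with values (brown bars) and of all genes with values (grey bars) called higher in each line, in percent, at the authors' adjusted p of at most 0.05. The brown bar is the taller in each line, from 22.7% in NCIH522 and PC9 to 72.0% in NCIH1563, and the hosts were chosen by these fold changes.

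The size of the change differed between lines for most hosts. Cochran's Q, which sets the spread of a gene's 10 fold changes against the authors' standard errors, was past an adjusted p of 0.05 for 16 of 21 hosts, while 65.9% of all 9339 genes passed. The share among hosts is thus near the background, and differing between lines is not particular to them. GAS5 had the largest Q of the hosts (127, adjusted p = 1.74e-21), followed by SNHG5 (105, adjusted p = 3.66e-17) and SNHG1 (103, adjusted p = 8.13e-17). SNHG4, SNHG9, SNHG17, SNHG20 and SNHG21 did not pass, with adjusted p from Cochran's Q between 0.0530 (SNHG21) and 0.775 (SNHG20). The standard errors rest on 2 libraries an arm, and enlarging them 1.5 times left 7 hosts past the threshold. The share of all genes at that setting is not given, and the 65.9% does not apply to it.

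No host differed between LUAD and LUSC lines at an adjusted p of 0.05 from limma (0 of 21, beside 0.0107% of 9339 genes, a single gene). At an unadjusted p under 0.05 there were 5 hosts, against 5.47% of all genes: SNHG12, SNHG1, SNHG3, SNHG4 and SNHG15. All 5 were larger in LUAD. SNHG12 averaged 0.75 over the 4 LUAD and 0.16 over the 6 LUSC lines, and SNHG1 averaged 0.69 and 0.11 (limma adjusted p = 0.708 and 0.713). For SNHG15 the means were 0.43 and 0.01 (limma adjusted p = 0.816). Of the 21 hosts, 18 had the larger mean in LUAD, as did 57.6% of all genes. The 4 LUAD lines also had the larger standard errors, and the part of this in the differences was not tested.

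The hosts did not all vary together from line to line. Over the 10 lines, the 210 pairs of hosts had a median Pearson correlation of 0.34, 18 pairs were above 0.8 and 67 were below 0. The closest pair was EPB41L4A-AS1 with ZFAS1 (r = 0.96, n = 10 lines), both lowest in NCIH522 and highest in NCIH1975. SNHG5 with SNHG6 (r = 0.95) and SNHG1 with SNHG15 (r = 0.93) came next. SNHG5 with SNHG21 had the lowest correlation (r = −0.68): in NCIH1563 the authors' deposited table gives 1.64 for SNHG5 and −0.44 for SNHG21. All genes of a line share its libraries, so these correlations describe the lines and carry no test.

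Several members start close to a gene on the other strand, and these neighbours were compared as measured transcripts of the same locus. The hosts were chosen by these fold changes and their neighbours were not. Counts of lines with the host above its neighbour are therefore a description and support nothing. TRAF7, a ubiquitin ligase gene whose start lies 340 bases from that of SNHG19, averaged −0.05 ± 0.25 (SD, n = 10, limma adjusted p = 0.742), and SNHG19 was above it in 10 of 10 lines. RPS2, a ribosomal protein gene 99 bases from SNHG9, averaged 0.10 ± 0.30 (limma adjusted p = 0.488), and SNHG9 was above it in 9 of 10 lines. SLC3A2, an amino acid transporter subunit gene 188 bases from SNHG1, averaged 0.12 ± 0.22 (limma adjusted p = 0.308), and SNHG1 was above it in 7 of 10 lines. ZBTB37, a zinc finger gene 800 bases from GAS5, averaged 0.21 ± 0.31 over its 5 lines (SD, n = 5), and GAS5 was above it in all 5. GLRX5, an iron-sulfur cluster gene, averaged −0.19 ± 0.21 beside SNHG10 (limma adjusted p = 0.0784), and SNHG10 was above it in 9 of 10 lines. ACAA2, 63 bases from SNHG22, averaged −0.14 ± 0.19 (limma adjusted p = 0.164), and SNHG22 was above it in 2 of 2 lines. AC015802.4, an antisense RNA 83 bases from SNHG16, had 0.875 in SKMES1 and 2.67 in SW900 in the authors' deposited table. SNHG16 was above it in 0 of these 2 lines.

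ZNFX1, a helicase gene 248 bases from ZFAS1, rose with a mean of 0.27 ± 0.26 (SD, n = 10, limma adjusted p = 0.0321), and ZFAS1 was above it in 8 of 10 lines. MORC2, a chromatin ATPase gene 947 bases from TUG1, rose with a mean of 0.34 ± 0.27 (limma adjusted p = 0.0128), and TUG1 was above it in 5 of 10 lines. The furthest apart were SNHG18 and SEMA5A, a semaphorin gene whose start lies 125 bases away. SEMA5A had values in 4 lines and was called lower in all of them, at −3.97 in NCIH1563, −2.80 in LK2, −1.88 in NCIH226 and −1.36 in NCIH520 in the authors' deposited table. In the 3 of these lines where SNHG18 also had values, it was at 0.70, 0.37 and 0.11 in the same order. Of the protein-coding genes that overlap a host on its own strand, 3 had values in all lines, and none of the 3 passed the across-line limma test: RCC1 over SNHG3 averaged 0.13 ± 0.22 (limma adjusted p = 0.243), MATR3 over SNHG4 averaged 0.17 ± 0.16 (limma adjusted p = 0.0783) and SEC14L1 over SNHG20 averaged −0.10 ± 0.38 (limma adjusted p = 0.586). Reads in the shared stretches may be assigned to either gene.

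**Figure D4:**
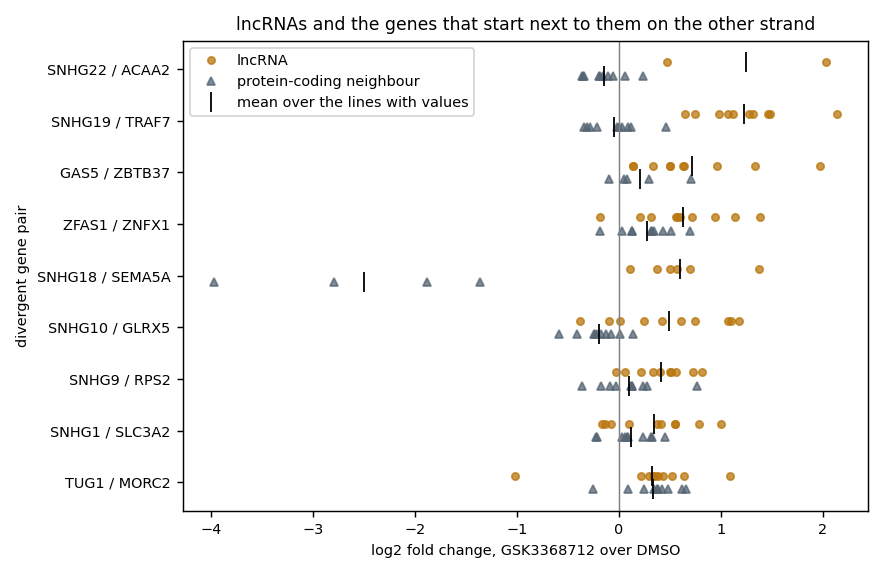
Log2 fold change (horizontal axis, GSK3368712 over DMSO) of the lncRNA (circles) and of its protein-coding neighbour on the other strand (triangles) for 9 pairs, with 1 point for each line with values and a black mark at the mean. SEMA5A lies below −1 in all 4 of its lines, while SNHG18 lies above 0 in all 6.

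The snoRNAs themselves were barely covered by libraries made with a poly-A kit. Inside 15 hosts, 24 snoRNA genes had a value in at least 1 line, and 19 of them had a median mean normalized count under 10. Of their 153 entries, 0 were called higher and 1 lower by the authors' adjusted p (SNORA71B, in SNHG17). Depending on the line, 0.912% to 23.3% of all genes were called higher and 0.75% to 24.8% lower. Counts this low leave little room for a call, so the lack of calls does not show that the snoRNAs were unchanged. The 3 members of the SNORA71 group with values in all lines had negative means, as SNHG17 had: −0.88 for SNORA71B, −0.57 for SNORA71C and −0.43 for SNORA71A, on median mean normalized counts of 23.0, 5.95 and 6.97. The copies of this group are alike in sequence, so their split is uncertain. SNORA61 in SNHG12 rose (mean 0.57 ± 0.60, SD, n = 10, limma adjusted p = 0.0249) on a median count of 7.62. At such counts, reads of the host's unspliced RNA and of the snoRNA cannot be told apart.

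Genes that act on snoRNAs or on the decay of their hosts were mostly not called, as was true of all genes (9.50% higher, 12.1% lower). None of the 4 measured core proteins of box C/D particles passed the across-line test: fibrillarin (FBL) averaged −0.10 ± 0.34, NOP56 −0.10 ± 0.31, SNU13 −0.07 ± 0.27 and NOP58 −0.01 ± 0.19 (SD, n = 10 for each, limma adjusted p between 0.468 and 0.970). Neither did the 4 core proteins of box H/ACA particles, from −0.03 for the pseudouridine synthase DKC1 to 0.16 for NHP2. Of 14 assembly factors, 2 rose and 0 fell, beside 9.50% of all genes higher and 12.1% lower, which is near the background: ZNHIT3, a box C/D assembly protein, at 0.29 ± 0.16 (limma adjusted p = 0.00733) and COIL, the Cajal body scaffold, at 0.22 ± 0.17 (limma adjusted p = 0.0319).

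Of 12 nonsense-mediated decay factors, 2 rose and 0 fell (all genes: 9.50% and 12.1%), with a list median of 0.03. They were DHX34, an RNA helicase of the pathway, at 0.32 ± 0.25 (SD, n = 10, limma adjusted p = 0.0137) and SMG5, which couples the marked RNA to its degradation, at 0.21 ± 0.13 (limma adjusted p = 0.0240). The central helicase UPF1 averaged 0.02. In the exon junction complex, which marks spliced RNAs for this surveillance, MAGOHB fell with a mean of −0.55 ± 0.30 (limma adjusted p = 0.00130), below 0 in 10 of 10 lines. Its close paralog MAGOH averaged 0.14 ± 0.17 (limma adjusted p = 0.144), and how reads were divided between them was not examined. CASC3 rose with 0.22 ± 0.17 (limma adjusted p = 0.0319), and the remaining members did not pass. Thus 1 of the 6 members of this complex rose and 1 fell (all genes: 9.50% and 12.1%).

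Of 8 protein-coding transcripts known as decay targets, 2 rose and 0 fell (all genes: 9.50% and 12.1%), and the list median was 0.34. GADD45B, a stress-response gene, averaged 0.54 ± 0.49 (SD, n = 10, limma adjusted p = 0.0134), and ATF4, the transcription factor of the integrated stress response, averaged 0.42 ± 0.48 (limma adjusted p = 0.0400). Of 19 genes of the nuclear RNA exosome and its adaptors, 2 rose and 4 fell (all genes: 9.50% and 12.1%), with a median of −0.08. The exosome subunits EXOSC9 (−0.36 ± 0.26, limma adjusted p = 0.00880), EXOSC3 (−0.31 ± 0.23, limma adjusted p = 0.0133) and EXOSC8 (−0.28 ± 0.21, limma adjusted p = 0.0171) were among those that fell.

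Most protein-coding hosts of snoRNAs were not called either. Of 47 measured, 2 rose and 1 fell (all genes: 9.50% and 12.1%), and their median was 0.10 against 0.52 for the 21 non-coding hosts and 0.00 for all genes. RPL12 (0.36 ± 0.38, limma adjusted p = 0.0316) and RPL3 (0.33 ± 0.35, limma adjusted p = 0.0367) rose, and SF3B3, a splicing factor gene, fell by 0.24 on the log2 scale (limma adjusted p = 0.0449). Of 81 cytosolic ribosomal protein genes, 5 rose and 1 fell (all genes: 9.50% and 12.1%), with a median of 0.15. This list shares many genes with the protein-coding hosts, RPL12 and RPL3 among them, so the 2 lists are not separate comparisons. The one that fell was RPL39L, a paralog with restricted expression, at −0.52 ± 0.35 (limma adjusted p = 0.00359). The difference between these lists and the hosts was not tested.

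**Figure D5:**
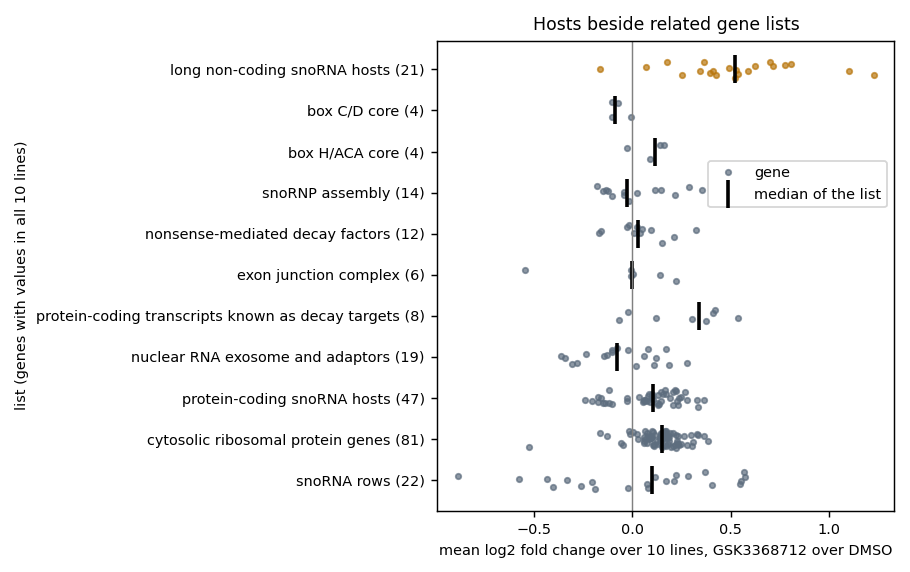
Mean log2 fold change over 10 lines (horizontal axis, GSK3368712 over DMSO) of each gene of 11 lists, with the number of genes in brackets and a black mark at the list's median; vertical scatter within a row is only for legibility. The median is 0.52 for the non-coding hosts, 0.34 for the decay targets and between −0.09 and 0.15 for the other lists.

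The labelled origin was checked by listing alone. Of 5 epithelial markers, between 3 and 5 had values in each line. Squamous markers were not limited to the LUSC lines nor adenocarcinoma markers to the LUAD lines: PC9 listed 3 of 5 squamous markers and 0 of 4 adenocarcinoma markers, and SW900 listed all 4 adenocarcinoma markers. Of 8 markers of immune, endothelial and stromal cells, 1 to 5 had values per line: COL1A1 in all 10 and CD68 in 8, whereas PTPRC, CD3E and VWF had none in any line. Their part in the hosts' values was not tested. Summed over the genes listed for a line, mean normalized counts came to between 57647556 and 108557964. Nothing in the labels tells whether the libraries of 1 arm were grown apart, so the p-values measure the spread between lines or, within a line, between 2 libraries that may be technical replicates.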

How the data were processed

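RNA from 40 libraries of 10 cell lines was, per the labels' protocols, isolated with a miRNeasy kit, made into libraries with a stranded poly-A kit and sequenced as paired reads. The submitters' processing notes name FastQC, Salmon 0.12.0, DESeq2 (no version given) and the build GRCh38. Per the labels, genes at an FPKM of 1 or less were filtered out of a comparison. All values came from the authors' deposited table: log2 fold changes and their standard errors in log2 units, adjusted p-values, the test statistic (a score) and mean normalized counts (a signal, not comparable between lines), with 135786 of 583360 entries filled. Values per library were not analysed here, and counting intervals need them. Salmon's strand setting is not given in the sources used here.

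Members were matched by symbol, and positions came from GENCODE 29 (19245 of 19280 gene IDs matched). snoRNAs inside hosts and start sequences came from RefSeq GRCh38.p14, without a check of the snoRNAs' strand. Mean fold changes over lines, 1 value per line, were tested with limma 3.58.1 in R 4.3.3 over the 9339 genes measured in every line, with Benjamini-Hochberg adjustment at 0.05. LUAD and LUSC were compared by a 2-group limma fit, and differences between lines by Cochran's Q. The 3 tests were tested on simulated data, with known shifts for the limma tests and added spread between lines for Cochran's Q. The simulation for Q took the authors' standard errors as exact, so it does not cover errors estimated from 2 libraries an arm. Summaries and figures used Python 3.11.15 with pandas and matplotlib. Each mean ± SD takes the authors' fold change of every line as 1 value. The members, gene lists and tests were chosen with earlier results of these data known. All members are accounted for. Of each other list, up to 3 genes with the smallest p, or all of a list of up to 5, could be named, as could neighbours within 2 kb on the other strand and overlapping genes on the same strand. UPF1 was named after its value was seen. Alternatives were centring, wider and narrower gene filters, other variance models, a meta-analysis, and leaving out lines; leaving out NCIH1975, NCIH522 and PC9 together, and leaving out lines in the fit of genes with at least 7 lines, were added after seeing the data.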

Additional observations from a re-analysis of the deposited data

Results flagged for a closer look

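Dixon's test flags a line whose gap to the nearest other line exceeds its 95% critical value. Among the 26 members with values in 6 to 10 lines, 3 had such a line, all 3 in NCIH1563. Chance flags about 1 in 20 only where all lines have equal error. Here the median standard error over all genes ran from 0.108 in LK2 to 0.342 in NCIH1975. The share of all genes flagged, in any line or in NCIH1563, is not given, so nothing is read from the count. SNHG7 was at 1.64 there, with the next line at 0.96. SNHG25 was at 5.40, with the next line at 1.70, a standard error of 2.07 and a mean normalized count of 9.63. TUG1 was at −1.02, with the next line at 0.22, a standard error of 0.22 and a mean normalized count of 16116.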

How the results depend on the processing

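No paired analysis was possible because the deposited table holds 1 comparison per line and no value per library. Of the fits across lines, centring, the wider gene filter, robust and trended variance and the meta-analysis each gave 17 hosts called higher, in the wider filter with SNHG25 and without SNHG1. The ordinary test gave 12, and leaving out NCIH1975, NCIH522 and PC9 together gave 12. Keeping the upper 75% of genes by expression gave 9 of the 12 hosts then tested, with SNHG1 losing its call. Leaving out 1 line gave 13 to 17. The count called lower was 0 except 1 (SNHG17) with the ordinary test, with the meta-analysis and without NCIH520, so 0 to 1 on leaving out a line. Hosts past Cochran's Q were 7 with standard errors enlarged 1.5 times and 14 to 17 on leaving out a line. The count differing by subtype was 0 in each alternative. The authors' higher calls were 35 when a log2 fold change past 1 or −1 was required and 93 to 106 on leaving out a line, and their lower calls were 1 and 2 to 4; without SW900, 2 remained. On leaving out a line, SNHG11 ran from −0.069 to 0.028 (above 0 without SW900 or PC9) and SNHG14 from −0.267 to 0.086 (above 0 without NCIH1563); neither was called in any of these fits. The calls for SNHG1, SNHG10, SNHG12, SNHG16 and EPB41L4A-AS1 were lost under at least 2 alternatives, and SNHG3 without NCIH1975, NCIH522 and PC9. TUG1 was called higher without NCIH1563 (0.47) and in the meta-analysis (0.33), and SNHG21 without NCIH1563 (0.45). Apart from the wider gene filter, shares of all genes called are not given for these alternatives. Depth per library was not analysed here, and the error of each fold change rests on 2 libraries an arm.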
